A study of Mus musculus with 12 samples.

Results

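The genes described here encode RNA-binding proteins other than those annotated to RNA splicing, measured by RNA-seq in GC1 cells, an established mouse spermatogonial line. They are the genes that carry the Gene Ontology term for RNA binding in the deposited table, that carry none of 10 other terms (RNA splicing, cell division, DNA repair and the like), and that reached 1 FPKM in at least 3 libraries. FPKM counts sequenced fragments per kilobase of a transcript after scaling for how many fragments a library mapped. Of 297 genes with the RNA binding term, 83 were left out for another term, 63 of them for splicing, and 6 by name. Of the remaining 208, 10 stayed below the level threshold, which left 198 members of the 2281 genes in the table and of the 2063 that were tested. Close to the threshold were Gm5580 inside, whose 3 highest libraries reached at least 1.32 FPKM, and Oas2 outside, whose 3 highest reached at least 0.947 FPKM.

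RNA-binding proteins accompany an RNA from transcription to decay. Ribosomal proteins and initiation factors carry out translation, aminoacyl-tRNA synthetases load tRNAs with amino acids, and nucleolar factors assemble ribosomes. Other members set the stability of messenger RNAs, export them from the nucleus, degrade them, or sense double-stranded viral RNA. Ythdf2 encodes a cytoplasmic reader of N6-methyladenosine (m6A) that directs marked RNAs to decay, and Setdb1 encodes a histone H3 lysine 9 methyltransferase.

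RNA was sequenced from 4 groups of 3 libraries, all at 24 h: WT cells, Ythdf2-ko cells, Ythdf2-ko-OE-CTR cells and Ythdf2-koOE-setdb1 cells. The last 2 are the knockout line given an overexpression control (called the control below) and the knockout line made to overexpress Setdb1. The 3 knockout groups carry a single line code, YC5, and the labels give neither the number of clones nor whether replicates were separate cultures. The p-values then measure the spread between these libraries, which may be technical. The title of the series places the comparison in DNA damage repair in spermatogonia.

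The table is a preselected set. Each of its 2281 genes was marked significant, with p up to 0.05 and q up to 0.113 in the authors' deposited table, where 38 members had a q above 0.05. A share of changed genes is thus a share of this set, and not one of the transcriptome. Read depth is unknown. The members' values summed to between 4970 and 5160 FPKM per library, which was 6.11 to 6.71% of the table. Ythdf2 itself stood at 8.51 to 9.33 FPKM in the WT libraries, at 5.79 to 6.28 in the knockout, and fell by 0.50 on the log2 scale (limma adjusted p = 8.75e-06), so its transcript was lower and not lost. It stood at 6.04 to 6.24 FPKM in the control and 4.23 to 4.99 with Setdb1, a difference of -0.345 (limma adjusted p = 0.000189). The part of this difference in the results with Setdb1 was not tested. Setdb1 was not among the 2281 genes of the table, so its level in the cells made to overexpress it could not be checked. Red cell transcripts (5 of 9 listed markers in the table) summed to 5.20, 514 and 205 FPKM in WT libraries 1 to 3 and to 602, 180 and 0.123 FPKM in knockout libraries 1 to 3, against at most 0.626 FPKM elsewhere. WT libraries 2 and 3 and knockout libraries 1 and 2 are called the libraries with blood transcripts below, and counts without them leave 1 library in each of the WT and knockout groups. Of 21 spermatogonial markers 5 were in the table, and their sum was 118 to 119 FPKM in WT, 75.2 to 77.7 in the knockout, 82.9 to 86.4 in the control and 71.3 to 78.6 with Setdb1. Cd9, which many cell types express, made up most of that sum, at 84.5 to 85.3 FPKM in WT and 47.8 to 50.2 in the knockout. Foxo1 stood the other way, at 4.56 to 4.76 FPKM in WT and 5.67 to 6.08 in the knockout, and Bcl6b stood at 1.94 to 2.01 FPKM in the control and 2.27 to 2.51 with Setdb1. The sum of 4 epithelial markers was 838 to 871 FPKM in WT and 330 to 399 FPKM in the 3 knockout groups. The 2 fibroblast markers in the table went opposite ways: Fstl1 was at 92.6 to 96.0 FPKM in WT, 145 to 147 in the knockout, 154 to 156 in the control and 188 to 191 with Setdb1, and Pdgfra at 6.65 to 6.77 in WT, 5.04 to 5.24 in the knockout, 5.53 to 5.81 in the control and 4.83 to 5.14 with Setdb1. Their part in the results was not tested. In bulk RNA, fewer cells of a type and less RNA per cell cannot be told apart.

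The name of the set holds only in part. In the deposited annotation 19 of the 198 members carry a term for splicing or the spliceosome other than the one that was barred, among them Srsf4, a serine/arginine-rich splicing factor, and Snrnp70 and Snrpc, proteins of the U1 particle. They were kept, since the rule keeps them, and are described as a group below. Snrnp70 and Snrpc were named after their values were seen.

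In knockout against WT cells, 147 of the 198 members changed at an adjusted p under 0.05, 76 higher and 71 lower. That is 74.2% of the members, against 77.3% of all tested genes (37.8% higher and 39.5% lower), so the share is near the background. The median difference was 0.04 over the members and -0.01 over all tested genes, in units of log2(FPKM + 1), the scale of every difference given here. Among members that changed, the median size of the difference was 0.28. In Setdb1 overexpression against its control, 130 members changed, 68 higher and 62 lower, or 65.7% against 67.9% of all tested genes (36.1% higher and 31.8% lower). The median size was 0.25. Without the libraries with blood transcripts, with 1 library left in each group, 45 members were higher in the knockout in place of 76 (22.7%, against 25.8% of all tested genes) and 49 lower in place of 71 (24.7% against 28.8%). Of the 147 calls, 89 were kept there, or 60.5% against 68.3% of the calls over all tested genes. For calls lost there, the difference without those libraries is given beside them.

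**Figure D1:**
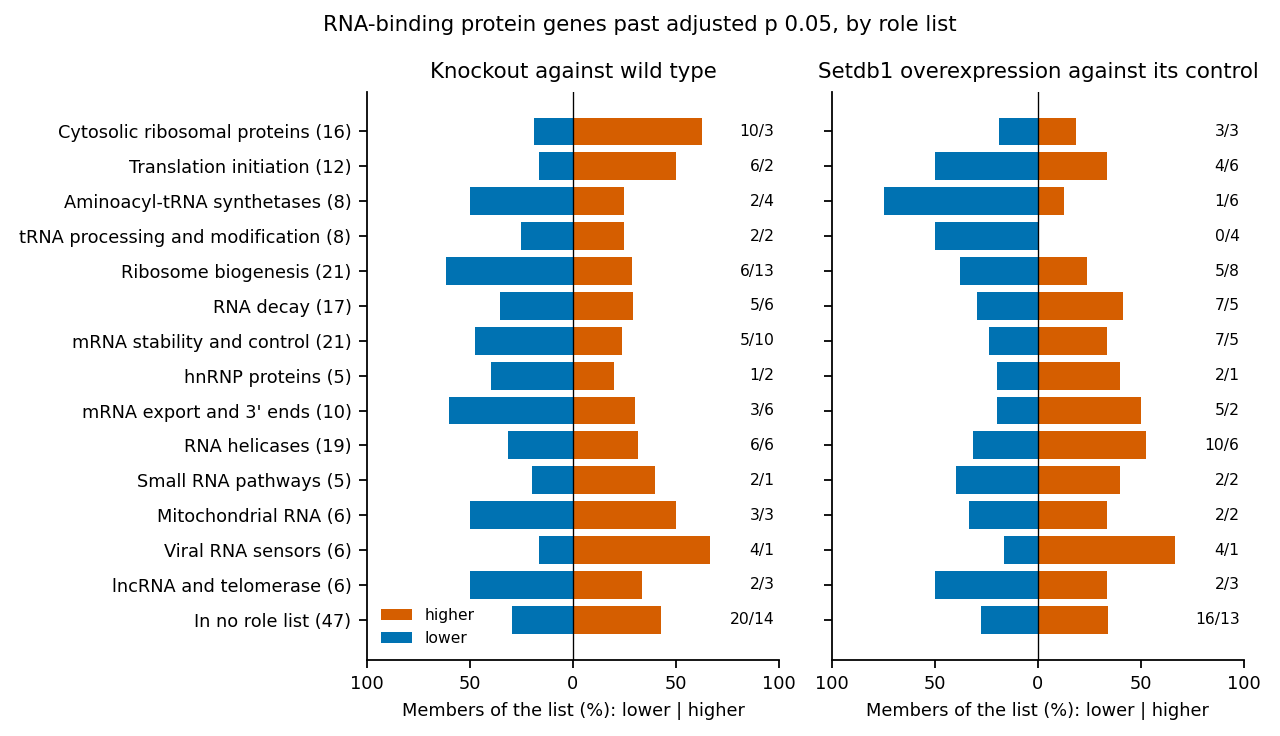
Percentage of members higher (right, orange) or lower (left, blue) at a limma adjusted p under 0.05, for the role lists drawn and for members in no list. The comparisons are knockout against WT and Setdb1 overexpression against its control. List sizes are in parentheses and counts (higher/lower) at the right. The role lists with the fewest members are not drawn. All tested genes stood at 37.8% higher and 39.5% lower in the knockout, and at 36.1% and 31.8% with Setdb1. Aminoacyl-tRNA synthetases stood at 1 higher and 6 lower with Setdb1, ribosome biogenesis at 6 higher and 13 lower in the knockout, and cytosolic ribosomal proteins at 10 higher and 3 lower in the knockout.

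Of 16 cytosolic ribosomal protein genes among the members, 10 were higher and 3 lower in the knockout (all tested genes: 37.8% and 39.5%). The median difference was 0.18. Over all 19 tested genes of the list, members or not, 10 were higher and 5 lower, with a median of 0.12. Rps20, of the small subunit, was at 41.5, 40.3 and 40.1 FPKM in WT cells and at 63.4, 69.2 and 44.7 FPKM in the knockout. All 3 knockout libraries lay above all 3 WT libraries, and the third knockout library lay close to them. Rps20 rose by 0.51 ± 0.12 (SE, adjusted p = 0.00313). Rps27l, a p53-inducible paralogue of a small subunit protein, measured 74.2, 74.4 and 73.2 FPKM in WT, 94.2, 96.4 and 88.8 in the knockout, 92.7, 90.9 and 88.2 in the control, and 105, 114 and 120 with Setdb1. No library overlapped between the groups compared, and it rose by 0.33 ± 0.05 in the knockout and by 0.31 ± 0.05 with Setdb1. Rpl22l1, a paralogue of the large subunit protein Rpl22, rose by 0.49 ± 0.08 in the knockout and fell by 0.20 with Setdb1, a call that was lost on leaving out any library of that comparison except control library 1. Rpl22 itself was not called in the knockout and fell by 0.33 ± 0.12 with Setdb1, a call lost without control library 2 or Setdb1 library 2. That fall was close to the threshold and also missed it with the replicate block (adjusted p = 0.0545), with quantile normalization (0.0614), in a fit of the 6 libraries alone or without the libraries with blood transcripts (0.0546 each), and against the unmodified knockout (0.0719). Rpl10a went the other way in the knockout, from 187, 189 and 180 FPKM in WT to 112, 115 and 162 FPKM, with the third library again nearest to WT. It fell by 0.53 ± 0.14 (adjusted p = 0.00513). Rpl7a, of the large subunit, rose by 0.54 ± 0.16. Rps27 (0.33) lost its call on leaving out any WT or knockout library, and Rpl3 (-0.29) on leaving out WT library 1 or 3 or knockout library 1. Of the genes named here, 5 were no longer called without the libraries with blood transcripts, which leaves 1 library in each group. These were not all the calls of the list that were lost there. The differences there were 0.11 for Rps20, 0.41 for Rpl7a, -0.21 for Rpl10a, 0.36 for Rps27 and -0.38 for Rpl3. Those of Rps20, Rpl7a and Rpl10a became smaller and those of Rps27 and Rpl3 did not. With Setdb1, 3 ribosomal protein genes were higher and 3 lower (all tested genes: 36.1% and 31.8%). Ribosomal protein genes have many processed pseudogenes, and the sources used here do not say how reads were shared among such copies.

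Ribosome biogenesis and rRNA processing genes stood the other way around in the knockout, with 6 of 21 higher and 13 lower (all tested genes: 37.8% and 39.5%). The median difference was -0.17 (all tested genes: -0.01). Of all 30 tested genes of the list 9 were higher and 17 lower, with a median of -0.11. Wdr43, a component of the small subunit processome, was at 24.8, 24.6 and 25.2 FPKM in WT, 17.3, 17.4 and 15.9 in the knockout, 17.4, 16.8 and 16.7 in the control and 12.8, 13.1 and 12.9 with Setdb1. The WT libraries were highest and the Setdb1 libraries lowest, with no overlap. Wdr43 fell by 0.53 ± 0.03 in the knockout (adjusted p = 1.68e-07) and by a further 0.36 ± 0.03 with Setdb1 (adjusted p = 4.31e-06). Dimt1, an 18S rRNA dimethyltransferase, measured 3.76, 3.70 and 3.73 FPKM in WT and 2.31, 2.87 and 2.54 in the knockout, and fell by 0.41 ± 0.05. Ddx21, a nucleolar helicase, fell by 0.40 ± 0.03 in the knockout. The H/ACA ribonucleoprotein genes, whose products guide pseudouridylation and hold telomerase RNA, moved together in the knockout: Gar1 fell by 0.27, Naf1 by 0.34 and Dkc1, the pseudouridine synthase, by 0.33. They separated with Setdb1. Gar1 fell by 0.34 and Naf1 by 0.25, whereas Dkc1 rose by 0.19 ± 0.04, from 5.18, 4.99 and 4.85 FPKM to 6.02, 5.66 and 5.87. Ddx24, a DEAD-box helicase, was higher in each comparison, by 0.33 ± 0.05 and 0.34 ± 0.05. Ddx49 was not called in the knockout (-0.02 ± 0.05) and rose by 0.46 ± 0.05 with Setdb1. The list stood at 5 higher and 8 lower with Setdb1, and at 5 higher and 9 lower in the knockout without the libraries with blood transcripts, where Naf1 stood at -0.25 and was no longer called (adjusted p = 0.0851).

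**Figure D2:**
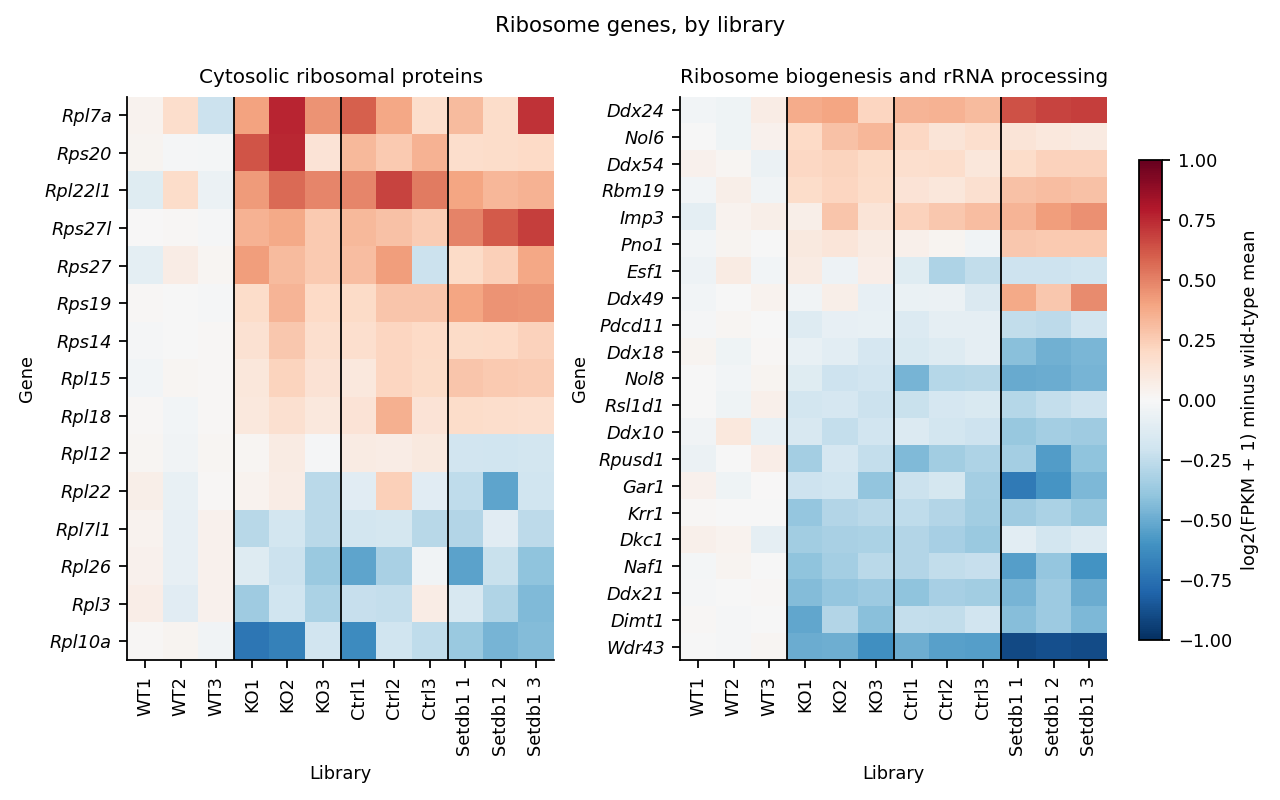
Heat map of the cytosolic ribosomal protein genes reported here (left) and 21 ribosome biogenesis genes (right) in each of the 12 libraries, coloured by log2(FPKM + 1) minus the mean of the 3 WT libraries; rows run from the most positive to the most negative knockout difference. Most ribosomal protein rows are red in the knockout libraries and most biogenesis rows blue (6 higher, 13 lower), and Wdr43 is lowest in the 3 Setdb1 libraries.

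The aminoacyl-tRNA synthetases were the role list with the largest share of falls with Setdb1 overexpression among the lists with at least 3 members. Of 8 genes 6 fell, Qars rose and Ears2, the mitochondrial glutamyl synthetase, was not called (all tested genes: 31.8% lower and 36.1% higher). The median difference was -0.41 against 0.02 over all tested genes. Eprs, the bifunctional glutamyl-prolyl synthetase, was at 26.7, 26.3 and 26.7 FPKM in the control and 16.7, 16.8 and 16.8 with Setdb1. Aars, for alanine, was at 69.6, 66.2 and 68.1 FPKM in the control and 47.3, 45.6 and 47.3 with Setdb1. Dars, for aspartate, went from 33.8, 33.5 and 33.1 FPKM to 22.9, 23.9 and 23.4. In each of these genes the 3 Setdb1 libraries were the lowest of all 12. Eprs fell by 0.63 ± 0.03, Aars by 0.53 ± 0.02 and Dars by 0.50 ± 0.02 (limma adjusted p between 1.51e-08 and 2.38e-08). Yars, for tyrosine, fell by 0.44, Farsb, the beta subunit for phenylalanine, by 0.38 and Mars, for methionine, by 0.20. Qars, for glutamine, rose by 0.19. The same 6 falls were called without the libraries with blood transcripts. In the knockout the differences were small: Eprs, Aars, Mars and Yars fell by 0.09 to 0.14, Dars rose by 0.09 and Ears2 by 0.31, and none of the 8 was called without those libraries. There Ears2 stood at 0.33, Dars at 0.11, Aars and Mars at -0.10, Yars at -0.07 and Eprs at -0.05.

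Xpot encodes exportin-t, which carries mature tRNAs out of the nucleus. It measured 31.4, 30.0 and 30.0 FPKM in WT, 21.1, 20.8 and 20.9 in the knockout, 22.6, 21.6 and 22.3 in the control, and 13.2, 14.2 and 13.6 with Setdb1. The groups formed 3 separate levels, with WT highest, the 2 knockout groups without Setdb1 next and Setdb1 lowest. Xpot fell by 0.52 ± 0.03 in the knockout (adjusted p = 1e-07) and by 0.66 ± 0.03 with Setdb1 (adjusted p = 3.37e-08), the largest fall of any member in that comparison. Of the 8 tRNA processing and modification genes among the members, 4 fell with Setdb1 and none rose (all tested genes: 31.8% and 36.1%). The median difference was -0.20. Of all 14 tested genes of the list 5 were lower and 1 higher, with a median of -0.10. Besides Xpot they were Mettl1, the catalytic subunit of the tRNA m7G methyltransferase (-0.33), Adat1, a tRNA adenosine deaminase (-0.31), and Thumpd3 (-0.25); the last 2 were named after their values were seen. In the knockout, Rpp25, a protein of RNase P and RNase MRP, fell by 0.61 ± 0.05, from 14.6, 15.2 and 16.6 FPKM to 9.61, 10.1 and 9.49, and was not called with Setdb1 (0.08 ± 0.05, adjusted p = 0.214).

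**Figure D3:**
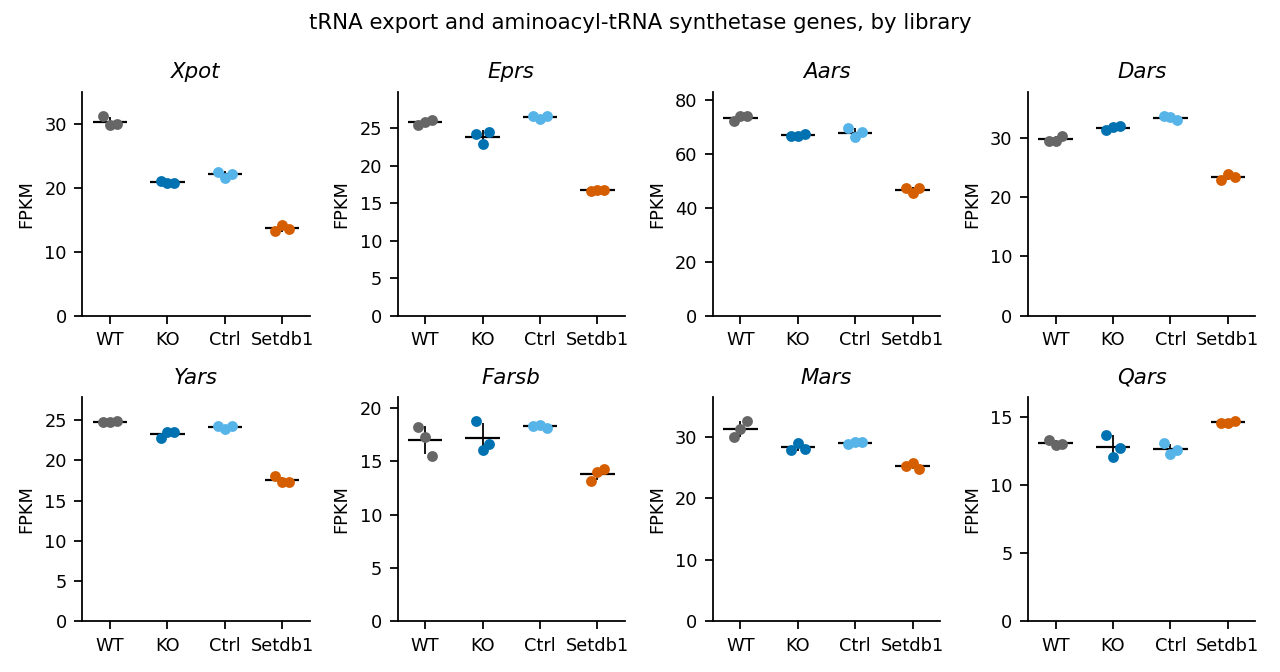
FPKM of Xpot and the 7 cytosolic aminoacyl-tRNA synthetase genes among the members, by group (WT, knockout, knockout with overexpression control, knockout with Setdb1 overexpression); points are libraries, horizontal lines the means of 3 and vertical lines ± 1 SD. The Setdb1 libraries are the lowest of the 12 in every panel except that of Qars, where their mean is the highest.

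The promoters of 4 of these genes are printed to show where a known element of this gene class lies. The amino acid response element, bound by ATF4, is active at many synthetase genes under amino acid shortage. Its core, TGATGNAAN, was searched on both strands in the RefSeq promoters of GRCm38.p6, each 250 bases before to 50 after the start of a gene. It was found in 3.95% of all 32851 promoters, in 6 of the 162 members with a promoter and in 2 of the 6 cytosolic synthetases with one, Aars and Yars. Shown are 150 bases before to 25 after the start, with matches in capitals, for Aars (chr8:111033692-111033866, + strand), Yars (chr4:129189753-129189927, + strand), Eprs (chr1:185362894-185363068, + strand) and Xpot (chr10:121626308-121626482, - strand).
Aars: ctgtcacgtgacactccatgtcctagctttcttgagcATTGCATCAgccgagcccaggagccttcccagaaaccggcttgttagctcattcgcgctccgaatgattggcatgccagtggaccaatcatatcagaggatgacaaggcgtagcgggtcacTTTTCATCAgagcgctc
Yars: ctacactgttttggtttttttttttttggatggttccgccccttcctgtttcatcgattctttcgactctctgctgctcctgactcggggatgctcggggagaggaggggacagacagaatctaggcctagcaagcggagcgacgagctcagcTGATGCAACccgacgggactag
Eprs: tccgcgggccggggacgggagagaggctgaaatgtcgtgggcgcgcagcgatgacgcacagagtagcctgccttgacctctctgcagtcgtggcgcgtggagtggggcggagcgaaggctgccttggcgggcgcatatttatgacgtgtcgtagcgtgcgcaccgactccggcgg
Xpot: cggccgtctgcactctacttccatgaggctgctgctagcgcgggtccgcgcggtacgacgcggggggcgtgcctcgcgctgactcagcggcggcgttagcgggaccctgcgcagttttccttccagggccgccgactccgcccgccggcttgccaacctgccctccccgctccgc
Aars held 2 matches, the first beginning 113 bases before the start. That of Yars began 4 bases into the transcript. Eprs and Xpot, which had the largest falls of the 4 with Setdb1, held none in this window. A match is a run of letters and not a measured binding site.

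Of the 12 translation initiation genes, 6 were higher and 2 lower in the knockout (all tested genes: 37.8% and 39.5%). With Setdb1, 4 were higher and 6 lower (all tested genes: 36.1% and 31.8%). Of all 18 tested genes of the list 10 were higher and 4 lower in the knockout, and 7 higher and 7 lower with Setdb1. Eif4b, a cofactor of the cap-binding helicase, was at 171, 175 and 175 FPKM in WT and 143, 145 and 144 in the knockout. It fell by 0.27 ± 0.01, rose by 0.11 in the control against the unmodified knockout, and fell by 0.07 with Setdb1. The last difference turned to 0.04 higher against the unmodified knockout in place of the control. Eif1ad, a nuclear protein related to the start codon factor Eif1A, was at 48.5, 57.0 and 49.7 FPKM in the control and 34.9, 35.2 and 36.2 with Setdb1, and fell by 0.53 ± 0.07. Eif1, which monitors start codon selection, fell by 0.39 ± 0.06 with Setdb1, from 177, 179 and 180 FPKM to 131, 132 and 144. Its fall of 0.14 in the knockout was lost on leaving out any 1 of 4 libraries. Pabpc4, a cytoplasmic poly(A)-binding protein, rose by 0.29 in the knockout and fell by 0.29 with Setdb1.

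RNA decay genes were divided in each comparison. In the knockout 5 of 17 were higher and 6 lower (all tested genes: 37.8% and 39.5%). With Setdb1, 7 were higher and 5 lower (all tested genes: 36.1% and 31.8%). All 32 tested genes of the list stood at 10 higher and 13 lower in the knockout, and at 14 higher and 8 lower with Setdb1. Dis3, the catalytic exonuclease of the nuclear exosome, was at 8.60, 9.24 and 9.38 FPKM in WT and 6.19, 6.05 and 6.61 in the knockout, and fell by 0.47 ± 0.04. It stood at 6.46, 6.60 and 6.45 FPKM with Setdb1. Cnot6, a deadenylase of the CCR4-NOT complex, the complex through which YTHDF2 is known to shorten poly(A) tails, went down and back up. It measured 33.3, 33.4 and 32.8 FPKM in WT, 26.0, 26.6 and 26.2 in the knockout, 25.6, 25.9 and 25.5 in the control and 33.7, 32.6 and 31.5 with Setdb1. The WT and Setdb1 libraries overlapped each other and lay above the remaining 6. Cnot6 fell by 0.33 ± 0.02 in the knockout and rose by 0.33 ± 0.02 with Setdb1. Exosc4, an exosome core subunit, did the opposite, with a rise of 0.28 ± 0.07 and a fall of 0.33 ± 0.07. The third knockout library of Exosc4, at 20.4 FPKM against 25.3 and 25.2, lay near the WT libraries at 18.6 to 19.7, and without the libraries with blood transcripts the difference was 0.09 and not called. Dcp2, the catalytic decapping enzyme, was not called in the knockout (0.06) and fell by 0.26 with Setdb1.

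Among 21 genes of mRNA stability, localisation and translational control, 5 were higher and 10 lower in the knockout (all tested genes: 37.8% and 39.5%). With Setdb1, 7 were higher and 5 lower (all tested genes: 36.1% and 31.8%). Over all 29 tested genes of the list the counts were 7 higher and 14 lower, and 8 higher and 10 lower. Msi2, a translational regulator of stem cells, was at 2.08, 1.99 and 2.08 FPKM in WT and 1.24, 1.09 and 0.938 in the knockout, and fell by 0.55 ± 0.06. Mex3b, a KH-domain and RING protein, was at 2.51, 2.61 and 2.22 FPKM in WT and 4.28, 4.19 and 3.96 in the knockout, and rose by 0.58 ± 0.05. Neither was called with Setdb1 (0.08 ± 0.06 and -0.04 ± 0.05). Mex3a, of the same family as Mex3b, fell by 0.20 in the knockout and rose by 0.25 with Setdb1. The knockout call was lost without the libraries with blood transcripts (-0.16). It was also lost with the control in place of the knockout (-0.04, limma adjusted p = 0.363). Pcbp1, an abundant poly(C)-binding protein, rose by 0.19 ± 0.02 in the knockout and fell by 0.25 ± 0.02 with Setdb1, with libraries at 122 to 124 FPKM in WT, 140 to 143 in the knockout, 139 to 141 in the control and 116 to 120 with Setdb1. Rbpms fell by 0.42 ± 0.15 with Setdb1, a call lost without control library 2, Setdb1 library 1 or Setdb1 library 2, and against the unmodified knockout (-0.34, adjusted p = 0.0713).

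With Setdb1, the counts of nuclear mRNA genes held more rises than falls, as did all tested genes (36.1% higher and 31.8% lower). Of the 10 mRNA export and 3′ end members 5 were higher and 2 lower, and of the 24 tested genes of that list, members or not, 13 were higher and 2 lower. Of 5 hnRNP members, 2 were higher and 1 lower, and of all 14 tested hnRNP genes 8 were higher and 1 lower. Of the 19 members with another splicing term, a group formed after the data were seen, 11 were higher and 2 lower, with a median of 0.20 against 0.02 over all tested genes. Hnrnpdl, a paralogue of the AU-rich element binding protein Hnrnpd, was at 22.5, 21.9 and 22.5 FPKM in WT, 18.5, 18.4 and 18.5 in the knockout, 19.4, 19.3 and 17.7 in the control and 26.7, 26.9 and 26.2 with Setdb1. Its Setdb1 libraries were the highest of the 12. It fell by 0.26 ± 0.03 in the knockout and rose by 0.48 ± 0.03 with Setdb1 (adjusted p = 5.47e-07). Srsf4 rose by 0.52 ± 0.08 with Setdb1, from 7.42, 6.80 and 5.76 FPKM to 9.11, 10.7 and 9.98. Pym1, which takes exon junction complexes off translated RNAs, rose by 0.50 ± 0.05, from 11.2, 10.8 and 10.5 FPKM to 15.5, 15.1 and 16.4. Neither was called in the knockout. Alyref2, a paralogue of an mRNA export adaptor, rose by 0.49 ± 0.06 in the knockout, and Zfc3h1, which retains polyadenylated RNA for nuclear decay, fell by 0.16 there, a call narrowly lost without the libraries with blood transcripts (-0.17, adjusted p = 0.051), and rose by 0.24 with Setdb1. In the knockout the 10 export and 3′ end members stood at 3 higher and 6 lower, and at 3 higher and 1 lower without the libraries with blood transcripts. Gm8994 and Gm5580, described in the deposited table as Eif4a3-like, rose by 0.51 and 0.50 with Setdb1, to libraries at 1.32 to 2.46 FPKM. In the control Gm8994 was at 1.77, 1.08 and 1.01 FPKM and Gm5580 at 0.578, 1.20 and 0.721, so both lay near the level threshold. As near copies of Eif4a3, a core exon junction protein, their reads may be shared with it.

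RNA helicases unwind RNA in all of these processes. Of 19, 6 were higher and 6 lower in the knockout (all tested genes: 37.8% and 39.5%). With Setdb1, 10 were higher and 6 lower (all tested genes: 36.1% and 31.8%). Of all 28 tested helicase genes 11 were higher and 9 lower in the knockout, and 15 higher and 8 lower with Setdb1. Ddx59 measured 8.37, 8.39 and 7.75 FPKM in WT, 9.70 ± 0.263 in the knockout (mean ± SD), 10.5, 9.66 and 9.63 in the control and 6.27, 6.38 and 5.90 with Setdb1. Its Setdb1 libraries lay below WT as well. Ddx59 rose by 0.22 ± 0.04 in the knockout, a call lost without the libraries with blood transcripts (0.18), and fell by 0.60 ± 0.04 with Setdb1 (adjusted p = 9.39e-07). Dqx1 was lower in each comparison (-0.34 and -0.37), the first of which was also lost without those libraries, at -0.31.

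Viral RNA sensors and effectors were mostly higher in each comparison. Of 6 members 4 were higher and 1 lower in the knockout, and again with Setdb1, with medians of 0.37 and 0.27. All tested genes stood at 37.8% higher and 39.5% lower in the knockout, and at 36.1% and 31.8% with Setdb1. Of all 18 tested genes of the list 14 were higher and 2 lower in the knockout, and 10 higher and 3 lower with Setdb1. The 4 are 2′-5′ oligoadenylate synthetase family genes, whose active enzymes are turned on by double-stranded RNA. Oas1b was at 1.63, 1.41 and 1.76 FPKM in WT, 3.31, 3.48 and 2.65 in the knockout, 3.36, 3.73 and 3.25 in the control and 4.93, 4.67 and 5.44 with Setdb1. It rose by 0.67 ± 0.09 and then by 0.43 ± 0.09, with no overlap between the groups compared. Oasl2 was at 2.54, 2.44 and 2.30 FPKM in WT, 5.90, 3.76 and 5.36 in the knockout, 5.58, 5.18 and 5.56 in the control and 9.73, 9.34 and 5.55 with Setdb1. The third Setdb1 library lay among the controls. Oasl2 rose by 0.79 ± 0.18 in the knockout. Without the libraries with blood transcripts that rise was as large, at 0.84, but not called (adjusted p = 0.0662). It rose by 0.48 ± 0.18 with Setdb1, a call lost when any of the control libraries, or the first or second of the Setdb1 libraries, was left out, and in a fit of the 6 libraries alone (adjusted p = 0.0587). Oas1c rose by 0.37 and 0.18, and Oas3 by 0.37 and 0.23; these genes were named after their values were seen. Isg20, an interferon-induced exonuclease, was the exception, with falls of 0.44 ± 0.04 and 0.19 ± 0.04. The fall with Setdb1 was lost against the unmodified knockout in place of the control (-0.02, limma adjusted p = 0.645).

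Interferon acts on such genes through the interferon-stimulated response element. Its core, TTTC, any 2 bases and TTTC, searched on both strands, was found in 3.44% of all promoters and in 2 of the 4 members of the list with a promoter, Oas1c (chr5:120812490-120812664, - strand) and Oas3 (chr5:120777635-120777809, - strand). Their stretches from 150 bases before to 25 after the start are shown with matches in capitals.
Oas1c: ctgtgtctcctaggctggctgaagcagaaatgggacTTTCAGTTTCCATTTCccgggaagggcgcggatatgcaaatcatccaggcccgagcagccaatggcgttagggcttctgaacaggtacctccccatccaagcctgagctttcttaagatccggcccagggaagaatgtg
Oas3: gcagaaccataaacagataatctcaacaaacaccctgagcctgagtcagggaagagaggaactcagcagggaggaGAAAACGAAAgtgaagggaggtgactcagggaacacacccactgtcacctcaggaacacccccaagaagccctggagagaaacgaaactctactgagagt
Oas1c held 2 overlapping matches, the first beginning 114 bases before the start, and Oas3 held 1, which began 75 bases before it. Over the 162 members with a promoter the core was found in 8, or 4.94%.

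Mitochondrial members moved singly. Mrpl18, a large subunit protein of the mitochondrial ribosome, was at 63.4, 63.5 and 65.7 FPKM in WT, 44.2, 42.2 and 43.4 in the knockout, 45.8, 46.7 and 45.6 in the control and 58.1, 57.1 and 60.0 with Setdb1. The Setdb1 libraries lay between the other knockout groups and WT. Mrpl18 fell by 0.56 ± 0.02 in the knockout (adjusted p = 2.03e-08) and rose by 0.34 ± 0.02 with Setdb1 (adjusted p = 1.2e-06). Mrm1, a methyltransferase of mitochondrial 16S rRNA, rose by 0.25 ± 0.06 in the knockout, a call lost without the libraries with blood transcripts (0.16), and fell by 0.64 ± 0.06 with Setdb1, from 6.29, 6.33 and 6.25 FPKM to 3.47, 4.15 and 3.45. Lactb2, a mitochondrial endoribonuclease, fell by 0.28 ± 0.04 and 0.45 ± 0.04. Grsf1, of the mitochondrial RNA granules, fell by 0.31 and rose by 0.09. Among 5 members of the small RNA pathways, Tdrd7, a Tudor-domain protein of germ cell granules, rose by 0.46 ± 0.04 in the knockout, Dicer1 rose by 0.18 with Setdb1 and Xpo5, which exports pre-miRNAs, fell by 0.23 with Setdb1. The fall of Tdrd7 with Setdb1 (0.12) was lost without control library 1 or Setdb1 library 2, and against the unmodified knockout (-0.04).

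Members in no role list numbered 47 and held some of the largest differences. Synj2, an inositol phosphatase of the synaptojanin family with an RNA-binding domain, was at 10.3, 8.45 and 9.46 FPKM in WT, 4.99, 4.99 and 4.06 in the knockout, 4.22, 4.35 and 4.27 in the control and 3.92, 4.27 and 3.96 with Setdb1. Every knockout library of any group lay below every WT library. Its fall of 0.87 ± 0.08 (adjusted p = 2.63e-06) was the largest in the knockout among members above 0 in every library, and it was not called with Setdb1 (-0.07 ± 0.08). Cavin1, a caveolar coat protein first described as a transcript release factor, was at 65.9, 65.2 and 67.1 FPKM in WT, 78.3, 79.1 and 78.2 in the knockout, 81.9, 80.3 and 80.8 in the control and 126, 125 and 125 with Setdb1. It rose by 0.25 ± 0.02 and by 0.62 ± 0.02 (adjusted p = 2.71e-10). Of the fibroblast markers above, Fstl1 was also highest with Setdb1 and Pdgfra was not, and their part was not tested. Pusl1, a pseudouridine synthase homologue, rose by 0.50 in the knockout and fell by 0.24 with Setdb1. Rbm42 rose by 0.44 and 0.38, the first lost without the libraries with blood transcripts (0.40, adjusted p = 0.0545). Rdm1 rose by 0.37 ± 0.08 and fell by 0.48 ± 0.08.

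Values of 2 predicted genes were uneven between replicate libraries or held zeros. Gm7324 rose by 1.05 ± 0.41 in the knockout, with knockout library 2 at 7.35 FPKM beside 1.19 and 1.49, against 0.474 to 0.866 in WT. Its call was kept without that library and was lost on leaving out any WT library. The call was also lost with only the 6 libraries compared, and with the control in place of the knockout (0.43, limma adjusted p = 0.344). Gm20521 was listed at 0 in the first WT library and in all 6 libraries of the knockout and the control, at 2.30 and 2.51 FPKM in the other WT libraries and at 3.41, 2.80 and 1.89 FPKM with Setdb1. It passed the threshold in the knockout and with Setdb1, and no fold is given. The knockout call was lost without WT library 2 or 3 and with only the 6 libraries compared (limma adjusted p = 0.0638). WT libraries 2 and 3 are libraries with blood transcripts, and without these Gm20521 was listed at 0 in both WT and knockout. In GENCODE M21 its locus overlaps Bcl2l2 and Pabpn1 on the same strand.

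The control against the unmodified knockout shows what the overexpression procedure itself went with. The threshold was passed there by 11 of the 198 members, 7 higher and 4 lower, or 5.56% against 8.68% of all tested genes (3.64% higher and 5.04% lower), and the median size of their differences was 0.14. The largest fall was that of Myef2 (-0.43 ± 0.11), a repressor of myelin basic protein transcription, from 20.7, 16.6 and 19.5 FPKM to 13.5, 13.3 and 14.6, and it was lost on leaving out any library of the comparison except knockout library 2. Ppp1r10, a regulatory subunit of a nuclear phosphatase, fell by 0.25 ± 0.03, from 23.6, 23.0 and 21.7 FPKM to 19.0, 19.4 and 18.5. Esf1 fell by 0.26 and Atxn2l by 0.12. Eprs, Dcp2, Mex3a, Isg20, Nudt4, Eif4b and Trap1 rose by 0.11 to 0.16. Leaving out single libraries kept between 5 and 8 of the 11 calls. Those of Myef2, Esf1, Atxn2l, Dcp2, Mex3a and Isg20 were each lost in at least 4 of the 6 omissions, and none of the 11 was kept without the libraries with blood transcripts, which leaves 1 knockout library.

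The knockout and the Setdb1 comparison share no library, so the direction of each member can be set side by side. Changed in each were 95 members. Of these, 19 were lower in the knockout and higher with Setdb1, which is 9.6% of the members against 13.3% of all tested genes, and Gm20521 is among them. They made up 26.8% of the members lower in the knockout and 27.9% of those higher with Setdb1, against 33.7% and 37.0% over all tested genes. The reverse, higher then lower, was seen for 20 members (10.1% against 11.2%), and for 10 without the libraries with blood transcripts (5.05% against 7.66%). Higher in each were 29 members (14.6% against 14.0%) and lower in each 27 (13.6% against 12.5%), together 56 (28.3% against 26.5%), and 37 without those libraries (18.7% against 18.8%). By the smaller of the differences, Mrpl18, Cnot6, Hnrnpdl and Csdc2 led the lower-then-higher group, Rdm1, Pabpc4, Exosc4, Trmo and Dtd2 the reverse, Oasl2, Oas1b, Rbm42, Ddx24 and Rps27l those higher in each, and Xpot, Wdr43, Dqx1, Lactb2 and Gar1 those lower in each. The knockout calls of Csdc2, Dtd2, Exosc4, Oasl2, Rbm42 and Dqx1 were lost without the libraries with blood transcripts. The difference there was close to 0 for Dtd2 (0.01) and became smaller for Exosc4 (0.09), while Csdc2 stood at -0.34, Oasl2 at 0.84, Rbm42 at 0.40 and Dqx1 at -0.31. Changed in neither comparison were 16 members.

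**Figure D4:**
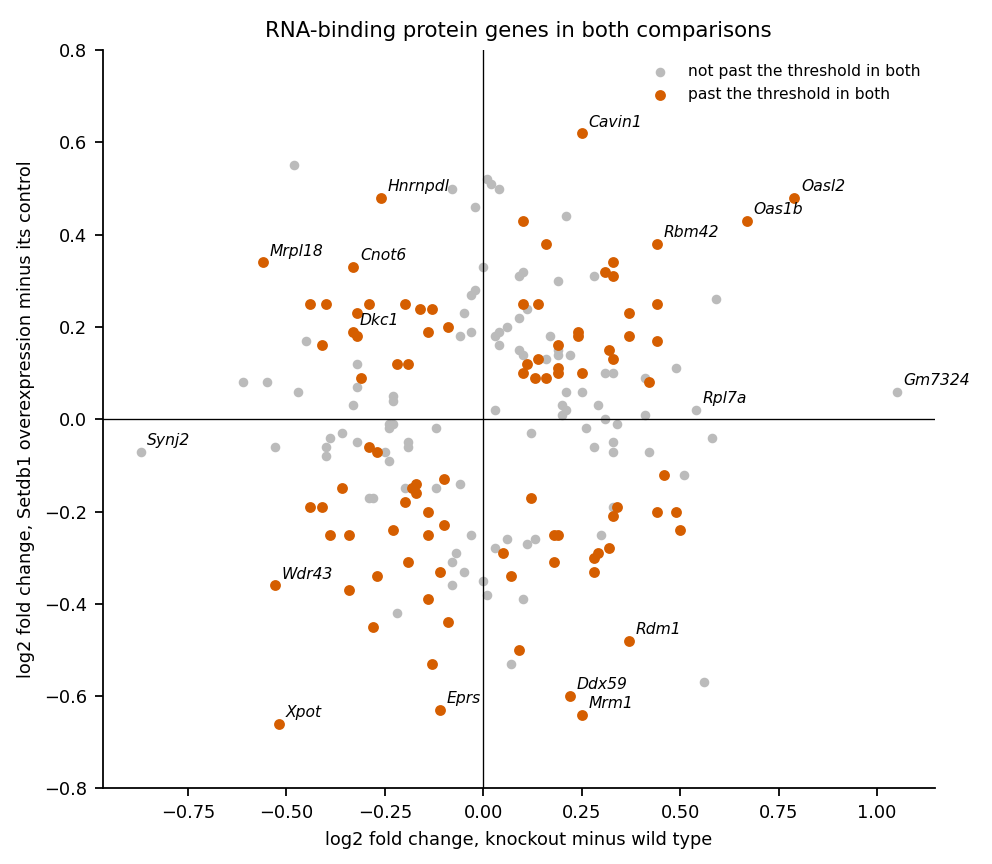
Difference in log2(FPKM + 1) for the members in knockout minus WT (horizontal) and Setdb1 overexpression minus its control (vertical), with members past the limma threshold in each comparison in orange; Gm20521, listed at 0 in 7 libraries, is left out. Members lie in all 4 quadrants, with Xpot and Wdr43 at the lower left, Oasl2 and Oas1b at the upper right and Mrpl18, Cnot6 and Hnrnpdl at the upper left.

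**Figure D5:**
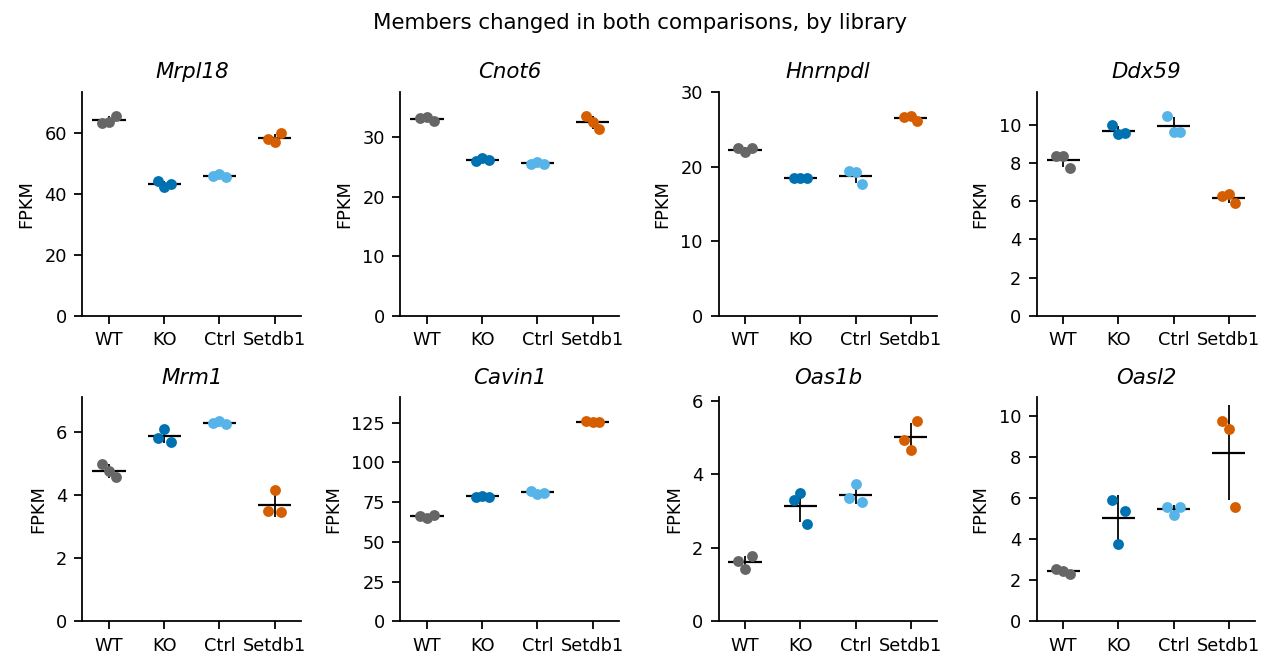
FPKM by group for 8 members called in both comparisons; points are libraries, horizontal lines the means of 3 and vertical lines ± 1 SD. Mrpl18, Cnot6 and Hnrnpdl were lower in the knockout groups and higher with Setdb1, Ddx59 and Mrm1 the reverse, and Cavin1, Oas1b and Oasl2 higher in each comparison, with the third Setdb1 library of Oasl2 at 5.55 FPKM among the controls.

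The members that rose and fell differed in base composition. In GENCODE M21 the longest protein-coding transcript had a median GC content of 53.1% for the 76 members higher in the knockout, 47.4% for the 71 lower and 49.0% for those not called. All tested genes showed 52.5, 49.0 and 49.4%. With Setdb1 the medians were 49.4% for members higher and 50.2% for members lower. The pentamer GGACT, the most used form of the m6A writer's target sequence, occurred at medians of 0.93 per kilobase in members higher in the knockout, 0.995 in members lower and 0.895 in those not called. Over all tested genes the medians were 1.10, 1.07 and 1.01. These are descriptions with no test, and m6A itself was not measured here.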

How the data were processed

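The submitters deposited 1 table of FPKM values for 12 libraries and 2281 genes, with a p-value and a q-value per gene whose comparison the deposited column names do not give. Per the submitters' processing notes, the tools were DESeq2, edgeR, StringTie, HISAT2 and cutadapt, with no role or version. Build: not given in the sources used here. RNA was total RNA from a phenol-based reagent, per the labels' protocols. The lowest deposited FPKM value, 1e-04, stands for 0. Only FPKM values were used for tests, so depth is unknown.

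Values were analysed as log2(FPKM + 1), which understates the change of low genes. Genes with at least 1 FPKM in at least 3 libraries (2063) were fitted with limma-trend (limma 3.58.1, R 4.3.3), with 1 mean per group over all 12 libraries. Two-sided p-values received a Benjamini-Hochberg adjustment over these 2063 genes, with 0.05 as the threshold. These genes were preselected as significant in a table of the same libraries, so the share of false calls is not held at 0.05. In the knockout, the 147 members called were also all those with an unadjusted limma p under 0.05. Errors of differences are SE. The test was checked on simulated data in which a minority of genes changed, without preselection or blood transcripts. The check therefore does not extend to those features of these data. The design was made for a whole-transcriptome table and was kept for this preselected one. Gene IDs were matched to symbols of GENCODE M21 (2281 of 2281). Promoters are RefSeq's for GRCm38.p6.

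The members, the 18 role lists and the tests were chosen with earlier results of these data known. Named genes are the 10 largest called rises and falls without overlap per comparison, the 2 largest differences per role list of at least 3 members, the 5 leading members of each pattern across comparisons, the 5 most abundant members and those next to the level threshold, with exceptions stated where they occur. The single values of 2 members are not reported here, and the counts include them. Alternatives were a pseudocount of 0.1, no filter, median-of-ratios and quantile scaling, a replicate block, only the 6 libraries compared, a term for or omission of the libraries with blood transcripts, the other control group, and leaving out each library. Leaving out the 19 members with another splicing term was added after seeing the data.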

Additional observations from a re-analysis of the deposited data

How the results depend on the processing

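Counts of members in the knockout and Setdb1 comparisons, and of members changed in both, stayed within 1.5 times under every alternative run, leaving out the 19 members with another splicing term included, except without the libraries with blood transcripts. There, members higher in the knockout numbered 45 (main 76), members higher then lower 10 (main 20) and members moved the same way 37 (main 56); the alternative leaves 1 library in each of the WT and knockout groups. The control against the unmodified knockout varied more. Its 7 higher members became 3 with only the 6 libraries compared, 4 with a term for blood transcripts, 2 without those libraries, and 4 to 5 on leaving out single libraries. Its 4 lower members became 2 with the replicate block, 1 with the term, 1 without those libraries and 1 to 6 on leaving out single libraries. Deviations of same-numbered knockout and WT libraries correlated at -0.7, 0.413 and -0.496. Among these pairs, only that of number 2 held blood transcripts in both libraries, so the values cannot tell whether replicate numbers pair the samples. Those of same-numbered Setdb1 and control libraries correlated at -0.028, -0.038 and -0.007, which shows no pairing. The replicate block kept 142 of 147 knockout calls and 129 of 130 Setdb1 calls. Leaving out single libraries kept 137 to 143 and 117 to 125. When the overexpression control stood in for the knockout, the differences from WT of Atxn2l (-0.049), Eprs (0.037), Esf1 (-0.23) and Ppp1r10 (-0.15) turned sign. With the unmodified knockout in place of the control, those of Eif4b (0.037), Esf1 (-0.24), Nudt4 (0.11) and Ppp1r10 (-0.15) with Setdb1 did. Exosc6 in the knockout became -1.74 without the libraries with blood transcripts, with 1 uneven library left in each of the WT and knockout groups (main 0.59, not called). The causes were not tested. Rescaling the libraries moved the median of all tested genes by at most 0.02. Depth is unknown, so the limit that it sets cannot be given.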

Other observations

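A few members had replicate libraries that split into separate levels. In 6 of the 198 members, and in 68 of the 2063 tested genes, the highest library of some group exceeded the lowest by more than 2 times. Lrrc47 was at 23.5, 8.85 and 21.3 FPKM in WT and 8.45, 24.4 and 23.4 FPKM in the knockout. Exosc6, an exosome subunit whose locus overlaps Aars on the same strand in GENCODE M21, was at 10.2, 1.39 and 3.48 FPKM in WT, 10.6, 9.52 and 2.37 FPKM in the knockout, 10.9, 11.1 and 10.5 in the control and 13.3, 11.1 and 15.4 with Setdb1. Eif1a was at 10.2, 25.9 and 9.64 FPKM in the control and 28.4, 11.6 and 10.8 FPKM with Setdb1. None of the 3 was called in any comparison in the fit of all 12 libraries. Larp4, with libraries of 8.32, 15.4 and 8.58 FPKM in WT and 14.0, 7.38 and 13.5 FPKM with Setdb1, was not called either (adjusted p = 0.0917 in the knockout and 0.0668 with Setdb1, limma).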
